A study of Homo sapiens with 12 samples.

Results

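The 10 genes described here, HSPA5, HSP90B1, PDIA4, SDF2L1, DNAJB9, DNAJC3, CRELD2, XBP1, HERPUD1 and EDEM1, belong to the unfolded protein response of the endoplasmic reticulum (ER). They were chosen by symbol as genes of this response. All 10 of 10 were found among the 25268 gene symbols measured, and all 10 were among the 14676 genes tested. HEK293, an established human embryonic kidney cell line, received either the mock empty vector, here called control, or 2 μg of a plasmid encoding tagged RBMX (pCMV6-HIS-HA-RBMX). RBMX is an RNA-binding protein of the hnRNP family. RNA was taken 48 h after transfection from 3 cultures per vector, and every culture was treated with cycloheximide and separated on a sucrose gradient. Polysomal RNA came from the fractions loaded with several ribosomes, and total RNA from a pool of all fractions of the same gradient (20% of each), so that 6 cultures gave 12 libraries. The overexpression was transient, in 1 cell line, and control cells received a plasmid as well. Untransfected cells and cells given an ER stress agent were not analysed here.

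Proteins that enter the secretory pathway fold in the ER. When unfolded proteins accumulate there, the sensors IRE1, ATF6 and PERK are activated. IRE1 splices the XBP1 mRNA, after which it encodes an active transcription factor. ATF6 is cut in the Golgi and releases another transcription factor, and PERK slows translation in general while raising that of ATF4. XBP1 and ATF6 together drive genes for chaperones and for ER-associated degradation. The gene-level values do not separate spliced from unspliced XBP1.

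The control elements known for this response were looked for in the promoters, and they are shown because they are the feature that the 10 genes are best known to share. The ER stress response element (ERSE) is CCAAT, then 9 bases of any kind, then CCACG. ERSE-II is ATTGG, 1 base, CCACG, and the unfolded protein response element (UPRE) is TGACGTGG. Both strands were read in windows from 250 bases before to 50 bases after each transcription start in the RefSeq table (GRCh38.p14). All 10 genes matched the table, XBP1 and PDIA4 with 2 windows each. An exact ERSE was found for HSPA5, HSP90B1, XBP1 and CRELD2, against 27 of all 35116 promoter windows (0.0769%) and 0.145% of the 10312 tested genes that matched the table. HSP90B1 held 2 of them. ERSE-II was found for HERPUD1 and SDF2L1, against 19 windows in all (0.0541%) and 0.136% of these tested genes. With up to 1 mismatch allowed in the 10 fixed bases, 7 of the 10 genes held an ERSE, with DNAJC3 as the addition that had neither exact element, against 1.55% of all windows and 2.66% of the tested genes. The ERSE of SDF2L1 with 1 mismatch overlaps its ERSE-II. UPRE was in none of the windows of the 10 genes and in 0.729% of all windows (1.23% of the tested genes). CCACG alone was in a window of each of the 10 genes and in 38.1% of all windows (57.5% of the tested genes). DNAJB9, PDIA4 and EDEM1 held no other of these letters in the windows read. A match is a description of the letters and not a measured site. The sites follow 5′ to 3′ on the strand of the gene, with the fixed bases of ERSE and the whole of ERSE-II in capitals. Where the element lies on the opposite strand, its reverse complement is seen (the second HSP90B1 site, CRELD2 and SDF2L1).
HSPA5, chr9:125241386-125241414, minus strand, 66 to 48 bases before the start: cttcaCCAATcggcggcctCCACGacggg
HSP90B1, chr12:103930211-103930239, plus strand, 194 to 176 bases before the start: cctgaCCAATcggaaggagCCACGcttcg
HSP90B1, chr12:103930316-103930344, plus strand, 89 to 71 bases before the start: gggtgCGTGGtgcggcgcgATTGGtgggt
XBP1, chr22:28800598-28800626, minus strand, 52 to 34 bases before the start: gctggCCAATcgcggagggCCACGaccgt
CRELD2, chr22:49918549-49918577, plus strand, 80 to 62 bases before the start: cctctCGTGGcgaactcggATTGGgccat
HERPUD1 (ERSE-II), chr16:56932020-56932040, plus strand, 117 to 107 bases before the start: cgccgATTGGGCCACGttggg
SDF2L1 (ERSE-II), chr22:21642109-21642129, plus strand, 188 to 178 bases before the start: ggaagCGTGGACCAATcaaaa
DNAJC3 (1 mismatch), chr13:95676999-95677027, plus strand, 135 to 117 bases before the start: cgcagCCTATcagcgcgaaCCACGacccc

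**Figure D1:**
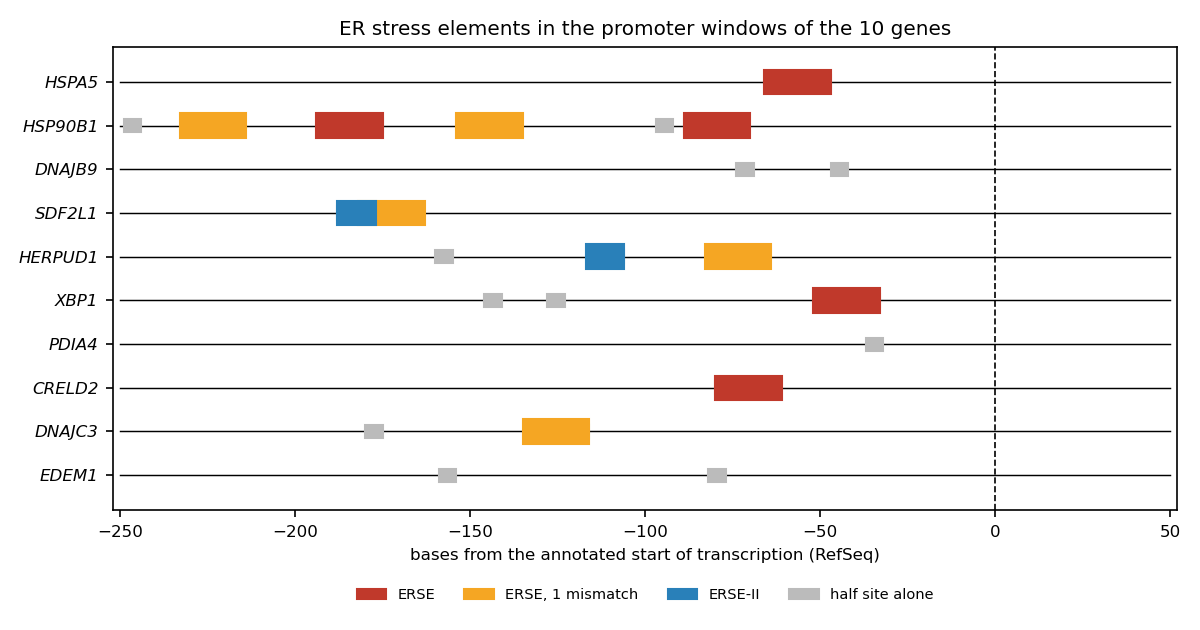
Position of the elements in the promoter window of each of the 10 genes, in bases from the annotated start (dashed line, x axis), for the window farther upstream where a gene has 2. Exact ERSE in red, ERSE with 1 mismatch in orange, ERSE-II in blue and CCACG outside these in grey. The exact elements all lie between 194 and 34 bases before the start.

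Levels are FPKM (fragment counts divided by transcript length and by the mapped fragments), which allows genes to be compared per length. How many fragments each library holds is unknown. RBMX itself, which checks the labels, was at 133 ± 22.2 FPKM (SD, n = 3) in control and 1755 ± 307 FPKM in RBMX total RNA, and at 127 ± 34.3 and 1189 ± 130 FPKM in polysomal RNA, where reads from the plasmid and from the gene are counted together. Control culture 3 stood apart from the other 2 control cultures. In this culture 7.41% (total) and 13.4% (polysomal) of the tested genes lay more than 1.5-fold outside both other libraries of the group, against at most 2.35% in any of the other 10 libraries. Of 6 HEK293 markers all 6 were detected, and 9 of 10 markers of other cell types were under 1 FPKM in every library. In bulk samples, fewer cells of a type and less RNA per cell cannot be told apart.

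The 10 genes spanned a 25.6-fold range of levels, by their medians over the 12 libraries. HSP90B1 (GRP94), the HSP90 of the ER, was the highest with a median of 251 FPKM, and it exceeded the next gene in 12 of 12 libraries. HSPA5 (BiP), the HSP70 of the ER and its main chaperone, followed at 114 FPKM. PDIA4, a protein disulfide isomerase, was at 107 FPKM, below HSPA5 in 12 of 12 libraries. SDF2L1, a partner of HSPA5 and its J-domain proteins, had a median of 78.4 FPKM and was exceeded by PDIA4 in 10 of 12 libraries, the 2 exceptions lying in control culture 3. XBP1 followed at 61.2 FPKM, and CRELD2, a small ER protein that is secreted in part, at 41.6 FPKM. The lower end was formed by HERPUD1, a membrane protein of ER-associated degradation (22.8 FPKM), EDEM1, which directs misfolded glycoproteins to it (17.8 FPKM), and the J-domain co-chaperones DNAJB9 (12.5 FPKM) and DNAJC3 (9.81 FPKM). Neighbours in this order kept their places in at least 10 of 12 libraries.

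**Figure D2:**
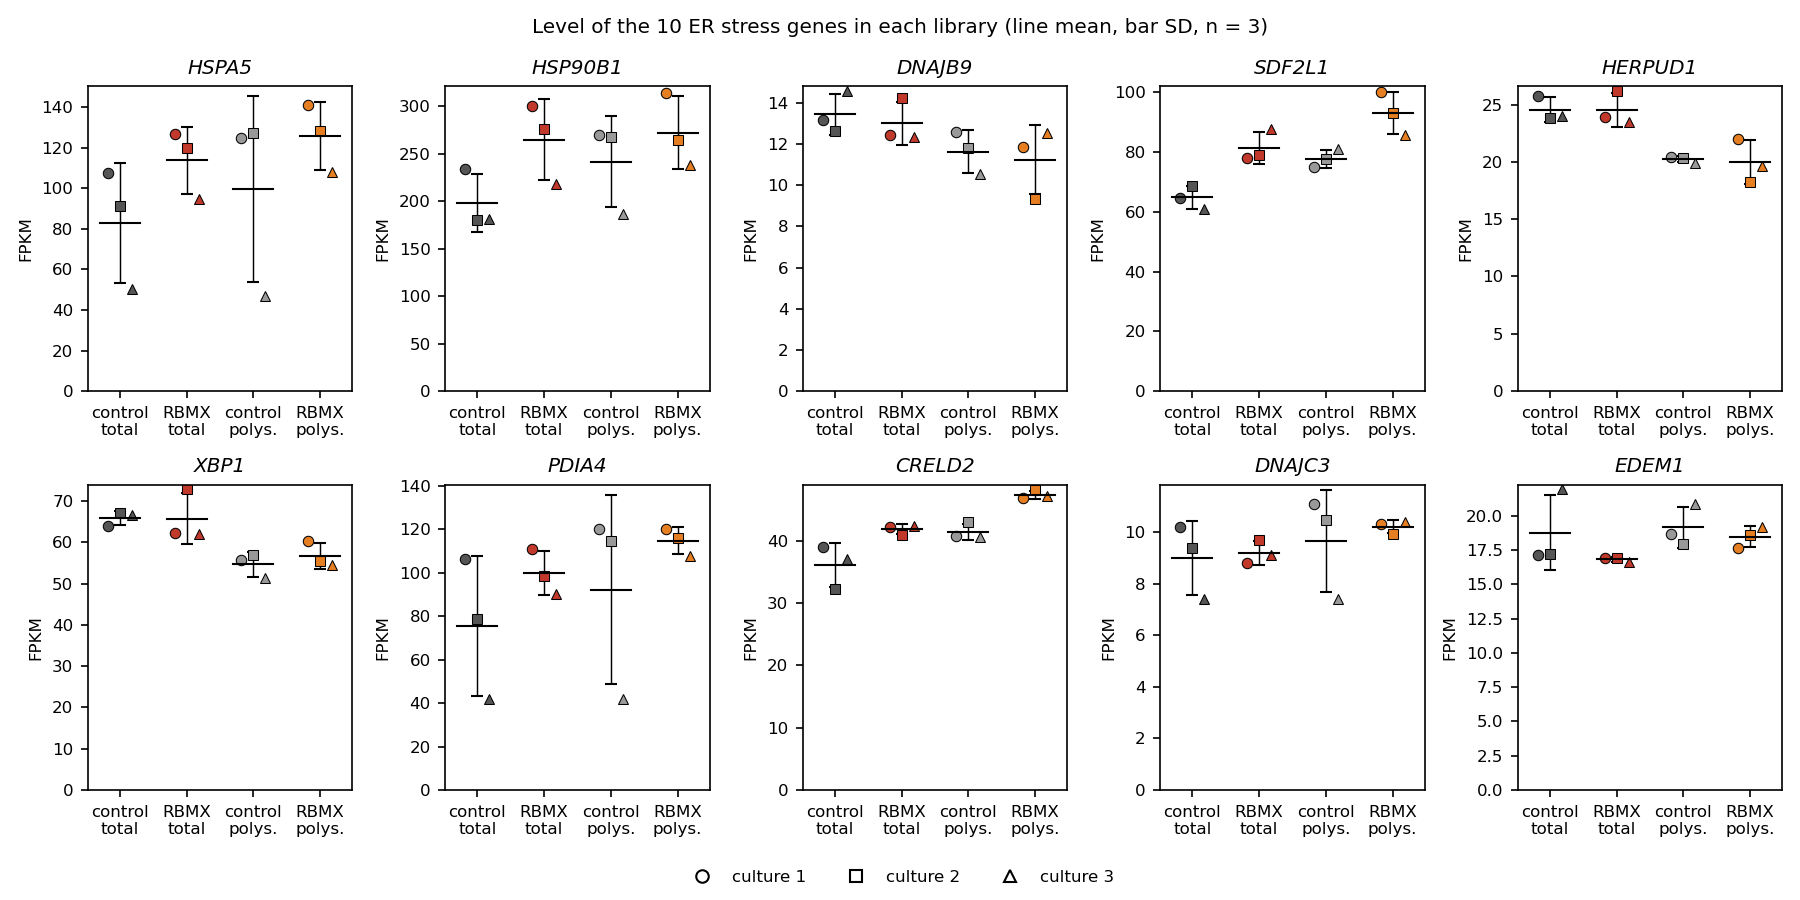
FPKM (y axis, from 0) of each of the 10 genes in the 12 libraries, by vector and fraction (x axis). Symbols mark cultures 1 to 3, lines the mean and bars the SD of 3. HSPA5 and PDIA4 are low in control culture 3 in both fractions, while SDF2L1 and CRELD2 lie higher with RBMX in both.

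The first comparison asked whether RBMX overexpression changed these genes in total or in polysomal RNA. None of the 10 passed the threshold in either fraction by limma's moderated test with Benjamini-Hochberg adjustment over all 14676 genes. In total RNA 0 of 10 were called, and 0.164% of all genes tested were. An unadjusted p under 0.05 was given to 3 of 10 (HSP90B1, SDF2L1 and CRELD2, all higher with RBMX), beside 18.8% of all genes. In polysomal RNA 0 of 10 were called, beside 0.0477% of all genes, and 2 of 10 (SDF2L1 and CRELD2) had an unadjusted p under 0.05, beside 11.7% of all genes. These shares lie near the background. Differences between RBMX and control are given on the log2(FPKM + 1) scale, with the standard error (SE).

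SDF2L1 and CRELD2 were the genes whose 3 RBMX libraries lay above all 3 control libraries in both fractions. Both fractions come from the same cultures, so that they do not count as independent. The share of all genes that lay so in both fractions was not computed. SDF2L1 was at 64.8, 68.6 and 61.1 FPKM in control total RNA and at 77.9, 79.0 and 87.7 FPKM in RBMX total RNA. In the polysomes it was at 74.9, 77.6 and 80.9 FPKM in control and at 100.1, 93.2 and 85.9 FPKM with RBMX. The lowest RBMX library was above the highest control library in each fraction. The log2 difference was 0.33 (SE 0.074, limma adjusted p = 0.176) in total and 0.25 (SE 0.084, limma adjusted p = 0.403) in polysomal RNA. Neither passed the test, so that the separation of the groups stands only as a description.

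CRELD2 was at 39.1, 32.3 and 37.1 FPKM in control total RNA and at 42.2, 41.0 and 42.4 FPKM in RBMX total RNA. In the polysomes it was at 40.8, 43.0 and 40.6 FPKM in control and at 46.9, 48.2 and 47.1 FPKM with RBMX. The RBMX libraries were close to each other in both fractions and the groups did not overlap. The log2 difference was 0.21 (SE 0.080, limma adjusted p = 0.250) in total RNA and 0.19 (SE 0.059, limma adjusted p = 0.400) in polysomal RNA. RBMX libraries lay above all control libraries for 11.9% of all genes in total RNA, where 2 of the 10 genes did so, and for 10.0% in polysomal RNA, again beside 2 of 10. They lay below all control libraries for 15.4% (total RNA) and 12.5% (polysomal RNA) of all genes, beside 1 of 10 (EDEM1) and 0 of 10.

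HSPA5 and PDIA4 had the largest differences and the widest errors in both fractions. HSPA5 was at 107, 91.2 and 50.2 FPKM in control total RNA and at 127, 119.9 and 94.9 FPKM with RBMX. Its polysomal levels were 125, 128 and 46.7 FPKM in control and 141, 128 and 108 FPKM with RBMX. Control culture 3 was the lowest in both fractions, and the other 2 control cultures overlapped with RBMX. The log2 difference was 0.51 (95% interval -0.24 to 1.27) in total and 0.46 (-0.58 to 1.50) in polysomal RNA. The RBMX mean was 1.15 times that of control cultures 1 and 2 in total and 0.997 times in polysomal RNA.

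PDIA4 had a like pattern. It was at 106, 78.8 and 41.9 FPKM in control total RNA and at 111, 98.5 and 90.4 FPKM with RBMX, and at 120.0, 114 and 42.0 FPKM in control and 120.1, 116 and 108 FPKM in RBMX polysomal RNA. Control culture 3 again was the lowest, at 0.454 times the mean of the other 2 control cultures in total and 0.358 times in polysomal RNA. Against those 2 cultures the RBMX mean was 1.08 and 0.979 times as high. The log2 differences over all libraries, 0.49 (95% interval -0.36 to 1.34) in total and 0.45 (-0.59 to 1.50) in polysomal RNA, therefore rest largely on that culture. Leaving it out turned the polysomal value to -0.032 for PDIA4 and -0.012 for HSPA5. In total RNA the differences were smaller without it and stayed positive, at 0.12 for PDIA4 and 0.19 for HSPA5.

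HSP90B1 was at 233, 180.1 and 181 FPKM in control total RNA and at 301, 276 and 218 FPKM with RBMX. In polysomal RNA it was at 270.1, 268 and 186 FPKM in control and at 314, 265 and 238 FPKM with RBMX. The groups overlapped in both fractions, in total RNA through 1 library on each side. The log2 difference was 0.41 (SE 0.17, limma adjusted p = 0.265) in total RNA and 0.18 (SE 0.20, limma adjusted p = 0.695) in polysomal RNA. Against control cultures 1 and 2 the RBMX mean was 1.28 times as high in total and 1.01 times as high in polysomal RNA.

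EDEM1 was at 17.2, 17.2 and 21.9 FPKM in control total RNA and at 16.9, 16.9 and 16.6 FPKM with RBMX, all 3 below the control libraries. Its polysomal levels overlapped, at 18.7, 18.0 and 20.8 FPKM in control and 17.6, 18.6 and 19.2 FPKM with RBMX. Here control culture 3 was the highest. The log2 difference was -0.14 (SE 0.10, limma adjusted p = 0.503) in total and -0.049 (SE 0.080, limma adjusted p = 0.801) in polysomal RNA. Without control culture 3 it was -0.029 in total and 0.0093 in polysomal RNA, and the RBMX mean was 0.979 and 1.01 times that of control cultures 1 and 2.

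DNAJC3, which binds HSPA5 and is also known as an inhibitor of PKR and PERK, was at 10.2, 9.39 and 7.39 FPKM in control total RNA and at 8.78, 9.70 and 9.10 FPKM with RBMX. In polysomal RNA it was at 11.1, 10.5 and 7.41 FPKM in control and at 10.3, 9.91 and 10.4 FPKM with RBMX. In total RNA the groups overlapped with and without control culture 3, and in polysomal RNA only through it. Without that culture the direction turned in both fractions, with RBMX means at 0.938 and 0.948 times those of control cultures 1 and 2. Over all libraries the log2 difference was 0.038 (95% interval -0.26 to 0.34) in total and 0.091 (-0.29 to 0.47) in polysomal RNA.

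XBP1, HERPUD1 and DNAJB9 had small differences and overlapping groups. XBP1 was at 64.0, 67.2 and 66.6 FPKM in control total RNA and at 62.2, 72.8 and 62.0 FPKM with RBMX, a log2 difference of -0.0091 (95% interval -0.20 to 0.19). HERPUD1 was at 25.8, 23.8 and 24.0 FPKM and at 24.0, 26.2 and 23.5 FPKM, a difference of -0.00059 (-0.16 to 0.16). DNAJB9, a J-domain partner of HSPA5 that attenuates IRE1, was at 13.2, 12.6 and 14.6 FPKM and at 12.5, 14.2 and 12.4 FPKM, a difference of -0.045 (-0.26 to 0.17). For XBP1 the RBMX libraries lay both above and below all 3 control libraries. The polysomal differences were 0.053 (95% interval -0.14 to 0.25) for XBP1, -0.020 (-0.23 to 0.19) for HERPUD1 and -0.052 (-0.38 to 0.27) for DNAJB9. All interval bounds of XBP1 and HERPUD1 lay within 0.25 of 0 on this scale.

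**Figure D3:**
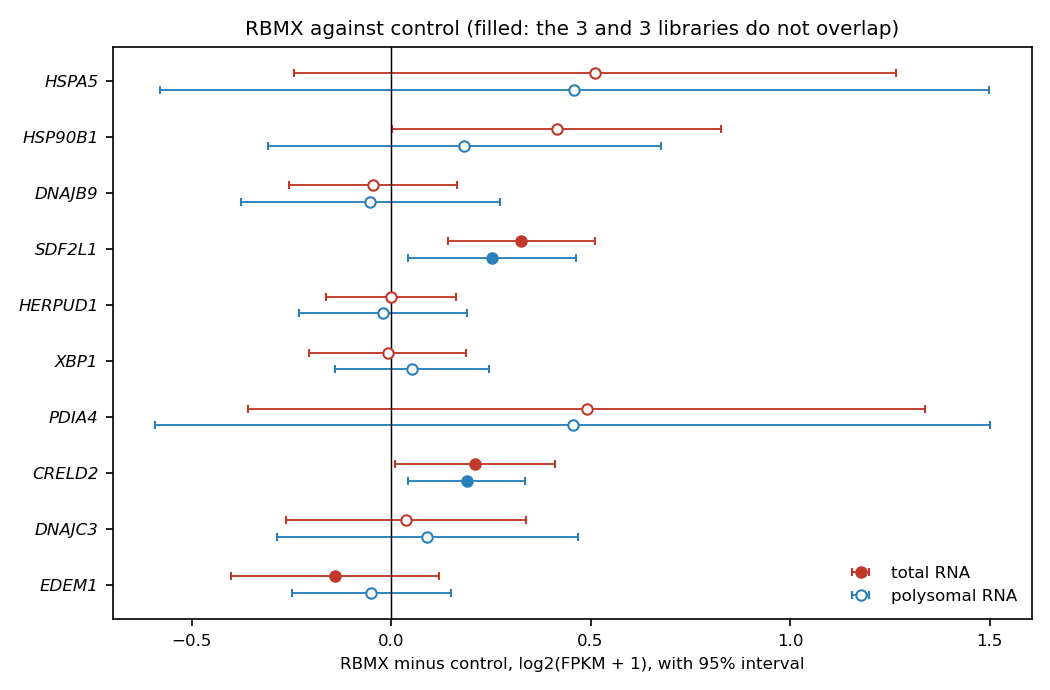
Difference between RBMX and control (x axis, log2(FPKM + 1)) for each of the 10 genes in total (red) and polysomal RNA (blue), with the 95% interval from limma. Filled symbols mark groups of 3 libraries that do not overlap, SDF2L1 and CRELD2 in both fractions and EDEM1 in total RNA, and the intervals of HSPA5 and PDIA4 are the widest.

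Whether the effect of RBMX differed between the fractions was asked by the difference of both effects over the 12 libraries. It was called for 0 of 10 genes, beside 0.0204% of all genes, and 0 of 10 had an unadjusted p under 0.05, beside 0.600% of all genes. The values ran from -0.23 for HSP90B1 (95% interval -0.83 to 0.37) to 0.091 for EDEM1 (-0.20 to 0.39). SDF2L1 had -0.073 (-0.32 to 0.18) and CRELD2 -0.022 (-0.24 to 0.20). This fit did not pair the 2 fractions of a culture. With the culture as a block 0 of 10 were called by limma, beside 5 of all 14676 genes. An unadjusted p under 0.05 was then given to 0 of 10, beside 316 of all genes. The SE went from 0.27 to 0.16 for HSP90B1 and from 0.55 to 0.15 for HSPA5, but from 0.16 to 0.18 for DNAJB9.

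The other comparison, polysomal against total RNA of the same vector, describes how the mRNAs were distributed between polysomes and the whole gradient. In control cells 0 of 10 genes were called by limma, beside 0.0818% of all genes, and 3 of 10 had an unadjusted p under 0.05 (SDF2L1 higher, HERPUD1 and XBP1 lower), beside 8.04%. In RBMX cells 0 of 10 were called, beside 1.34% of all genes, and 4 of 10 had an unadjusted p under 0.05 (CRELD2, DNAJC3 and EDEM1 higher, HERPUD1 lower), beside 23.0%. These fits did not pair the 2 fractions of a culture. With the culture as a block 0 of 10 were called for either vector. The calls over all genes then went from 12 to 6 in control and from 196 to 4 in RBMX cells. With this block the same 3 of 10 genes had an unadjusted p under 0.05 in control cells, beside 3085 of all 14676 genes. In RBMX cells 3 of 10 had one (PDIA4 and CRELD2 higher, HERPUD1 lower), beside 3217 of all genes. Polysomal libraries lay above all total libraries for 2 of 10 genes in control cells (SDF2L1 and CRELD2), beside 7.63% of all genes, and for 3 of 10 in RBMX cells (CRELD2, DNAJC3 and EDEM1), beside 14.6%. They lay below for 3 of 10 in control cells (DNAJB9, HERPUD1 and XBP1), beside 7.31%, and for 2 of 10 in RBMX cells (HERPUD1 and XBP1), beside 16.2%.

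The ratio of polysomal to total FPKM within a culture had the same side in all 6 cultures for 5 of the 10 genes. HERPUD1 had ratios of 0.791, 0.854 and 0.829 in control and 0.920, 0.696 and 0.839 in RBMX cultures. XBP1 had ratios of 0.872, 0.846 and 0.770 in control and 0.970, 0.761 and 0.878 in RBMX cultures. In these FPKM values both mRNAs were thus lower in polysomal than in total RNA of every culture. A ratio near 1, such as 0.970 for XBP1 in RBMX culture 1, depends on the scaling of the libraries, which is not known. In RBMX culture 1 the FPKM sum over genes other than small RNA genes was 529428 in total and 502311 in polysomal RNA. CRELD2 had ratios of 1.05, 1.33 and 1.10 in control and 1.11, 1.18 and 1.11 in RBMX cultures. PDIA4, at 1.13, 1.45 and 1.00 in control and 1.08, 1.18 and 1.19 in RBMX cultures, and DNAJC3, at 1.08, 1.11 and 1.00 and at 1.18, 1.02 and 1.14, were also above 1 throughout, though only just in control culture 3. A ratio above 1 in all 6 cultures was found for 16.0% of all genes and one below 1 for 16.5%, beside 3 and 2 of the 10 genes.

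SDF2L1 was above 1 in 5 of 6 cultures, with 1.16, 1.13 and 1.32 in control and 1.29, 1.18 and 0.980 in RBMX cultures. DNAJB9 was below 1 in 5 of 6, with 0.955, 0.934 and 0.724 in control and 0.953, 0.657 and 1.01 in RBMX cultures. HSPA5 (1.16, 1.40 and 0.931 in control, 1.12, 1.07 and 1.14 with RBMX), HSP90B1 (1.16, 1.49 and 1.03 in control, 1.04, 0.958 and 1.09 with RBMX) and EDEM1 (1.09, 1.04 and 0.949 in control, 1.04, 1.10 and 1.15 with RBMX) were each above 1 in 5 of 6 cultures. The exceptions lay in different cultures, control culture 3 for HSPA5 and EDEM1, RBMX culture 2 for HSP90B1 and RBMX culture 3 for SDF2L1 and DNAJB9.

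**Figure D4:**
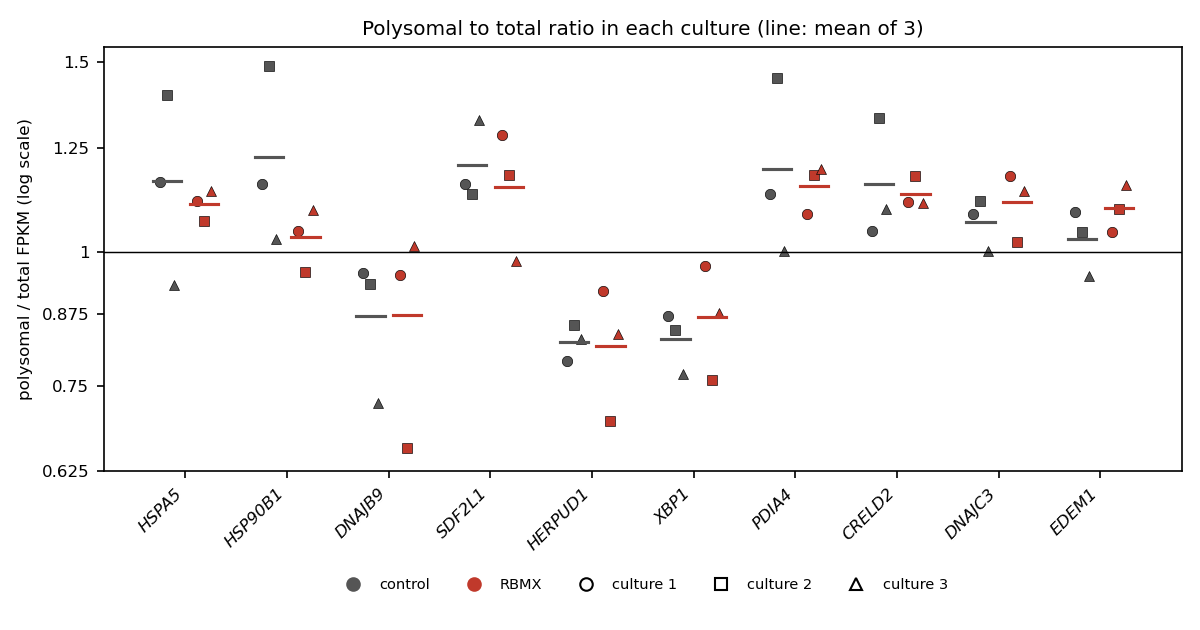
Ratio of polysomal to total FPKM (y axis, log scale) for each of the 10 genes in the 3 control (grey) and 3 RBMX cultures (red), with symbols for cultures 1 to 3 and lines for the mean of 3. In the FPKM as deposited, without rescaling, HERPUD1 and XBP1 lie below 1 and CRELD2, PDIA4 and DNAJC3 above 1 in every culture.

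Taking all 6 cultures together, each paired with itself, gave 4 of 10 calls in a limma fit that was chosen after seeing the data. HERPUD1 fell by 0.28 on the log2 scale (SE 0.050, limma adjusted p = 0.0158) and XBP1 fell by 0.24 (SE 0.051, limma adjusted p = 0.0232). CRELD2 rose by 0.19 (SE 0.047, limma adjusted p = 0.0331) and SDF2L1 rose by 0.22 (SE 0.059, limma adjusted p = 0.0368), in polysomal against total RNA. The same fit called 11.0% of all genes higher and 13.0% lower in the polysomes, 23.9% together, beside 2 and 2 of the 10 genes. PDIA4 had 0.22 (limma adjusted p = 0.0560), HSPA5 0.17 (limma adjusted p = 0.117), HSP90B1 0.16 (limma adjusted p = 0.204), DNAJC3 0.11 (limma adjusted p = 0.0652), EDEM1 0.080 (limma adjusted p = 0.161) and DNAJB9 -0.20 (limma adjusted p = 0.130).

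These 4 calls depended on single cultures and on the scaling of the libraries. Leaving out each culture in turn kept HERPUD1 called in 4 of 6 fits, XBP1 in 3, SDF2L1 in 1 and CRELD2 in 0, with adjusted p-values from limma of 0.0139 to 0.0529, 0.0286 to 0.0616, 0.0376 to 0.0875 and 0.0517 to 0.0798. All 10 genes kept their direction in these fits, while the share of all genes called went down to 5.72% without RBMX culture 3. Without control culture 3, PDIA4 (limma adjusted p = 0.0447) and DNAJC3 (limma adjusted p = 0.0488) were called higher and HERPUD1 and XBP1 lower. With libraries rescaled to equal sums over genes other than small RNA genes, the median of all genes moved from -0.0025 to 0.0995 in this fit (and to 0.12 in RBMX cells alone), and 7 of the 10 genes were called higher and 1, HERPUD1, lower, where 40.5% of all genes were called. XBP1 was not called then (limma adjusted p = 0.0742). This rescaling divides all genes of a library by the same factor, so that the order of the 10 log2 differences could hardly change. HERPUD1 was called lower, and SDF2L1 and CRELD2 higher, under each of the 3 rescalings tried.

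The other genes of the pathway were read from lists, described by counts and medians. With RBMX 0 of their 73 genes were called by limma in either fraction, beside 0.164% (total) and 0.0477% (polysomal) of all genes. An unadjusted p under 0.05 was given to 6 in total and 0 in polysomal RNA, beside 18.8% and 11.7% of all genes. Of 15 other ER folding genes 12 were higher with RBMX in total RNA (2 with an unadjusted p under 0.05, limma) and 11 in polysomal RNA (0 with one), with median log2 differences of 0.25 and 0.17, beside 0.12 and 0.14 for the 10 genes and 0 for all genes tested. Control culture 3 was the lowest control for 10 of the 15 in total and 12 in polysomal RNA, beside 6050 and 6597 of all 14676 genes. Against control cultures 1 and 2 alone 13 were higher in total and 6 in polysomal RNA, with medians of 0.11 and -0.0035, beside 0.065 and -0.0027 for the 10 genes and -0.013 and -0.027 for all genes tested. The lectin chaperone CANX (calnexin) turned from 0.19 to -0.048 in total RNA without that culture. CALR (calreticulin), a lectin chaperone, had the largest rise among those of this list whose groups did not overlap. It was at 482, 428 and 229.6 FPKM in control and at 608, 556 and 492 FPKM in RBMX total RNA, with control culture 3 again the lowest, a log2 difference of 0.60 (SE 0.30, limma adjusted p = 0.335). Without that culture the difference of CALR was 0.28. Of the cytosolic chaperones 9 of 10 were higher in total RNA, with a median of 0.34, none of them with groups that did not overlap. Control culture 3 was the lowest control for 8 of these 10, and without it 7 were higher, with a median of 0.075. HSP90AA1, the cytosolic HSP90, was at 372, 397 and 141 FPKM in control and at 376, 384 and 347 FPKM in RBMX total RNA, and its difference turned from 0.42 to -0.060 without that culture. HSPA1A had the largest difference of this list in total RNA (1.30, SE 0.70, limma adjusted p = 0.370). It stayed higher without that culture, at 0.60 in total and 0.48 in polysomal RNA. The 8 genes of the PERK and ATF4 branch had a median of 0.060 in total and 0.013 in polysomal RNA, with PPP1R15A, which reverses the action of PERK on translation, at 0.56 (SE 0.12, limma adjusted p = 0.170) in total RNA. Without control culture 3 PPP1R15A had 0.61 in total RNA. The 21 genes of ER translocation and glycosylation had medians of 8.4e-06 and -0.084, the 12 genes of ER-associated degradation 0.018 and -0.024, and the 7 sensors and their processing enzymes 0.086 and 0.093. The medians of the sensors turned to -0.059 and -0.035 without control culture 3.

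Among the rest of the lists, SEC61A1 of the translocon (0.33 in total, 0.39 in polysomal RNA) and the IRE1 gene ERN1 (0.13 in total RNA) had RBMX libraries above all control libraries. SSR3 (-0.24) and ERO1L (-0.094) in total RNA, and SEC61G (-0.69), ERO1LB (-0.24) and DERL3 (-0.059) in polysomal RNA, had theirs below. Only the largest rise or fall of a list is named here. In total RNA 5 of 15 other ER folding genes lay above and 1 below, and 2 and 3 of 21 translocation and glycosylation genes. All genes had 11.9% above and 15.4% below. In polysomal RNA these counts were 2 and 1, and 1 and 3, beside 10.0% and 12.5% of all genes. The other lists had at most 1 in either direction. The values of the genes named are log2 differences, and none passed the test (limma adjusted p from 0.247 to 0.657). Without control culture 3 SEC61A1 had 0.14 in total and 0.17 in polysomal RNA, and ERN1 0.14 in total RNA. SSR3 then had -0.17 and ERO1L -0.11 in total RNA. In polysomal RNA SEC61G had -0.40, ERO1LB -0.225 and DERL3 -0.056.

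In polysomal against total RNA over the 6 paired cultures, 6 of 15 other ER folding genes were called higher and 0 lower, beside 11.0% and 13.0% of all genes, with a median of 0.17 beside 0.13 for the 10 genes and -0.0025 for all. They were SIL1, an exchange factor of HSPA5 (0.25), CALR (0.24), HYOU1 (0.24), UGGT1 (0.23), TXNDC5 (0.22) and P4HB (0.22), each higher in 6 of 6 cultures. ER-associated degradation had 2 of 12 called higher (OS9, 0.23, and VCP, 0.20), and the sensors had 1 of 7, MBTPS1, the protease that cuts ATF6 (0.23). OS9 and VCP stayed called in 1 of the 6 fits that leave out a culture, the one without control culture 3, and MBTPS1 in all 6. The count of folding genes called ran from 0 to 8 when each culture was left out, with 0 without control culture 1 and without RBMX culture 3 and 1 without control culture 2, and it was 12 with equal sums. Of all genes 7.6%, 5.72% and 8.8% were called in these 3 leave-out fits, in the same order. The share was 21.2% without RBMX culture 2, where the count was 8, and 40.5% with equal sums.

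The PERK and ATF4 branch had 0 of 8 called higher and 3 called lower, beside 11.0% and 13.0% of all genes, with a median of -0.14. DDIT3 (CHOP), a transcription factor of prolonged stress, was at 40.6, 43.6 and 54.4 FPKM in total and 30.3, 30.7 and 48.6 FPKM in polysomal RNA of control cells, and at 53.2, 57.9 and 43.7 FPKM and 34.1, 30.9 and 28.7 FPKM in RBMX cells. It fell by 0.53 (limma adjusted p = 0.0132), ATF3 fell by 0.38 (limma adjusted p = 0.00376) and ATF4 fell by 0.37 (limma adjusted p = 0.0270), each in 6 of 6 cultures. Between 2 and 4 genes of this list were called lower when each culture was left out. Those fits called 5.72% to 21.2% of all genes in either direction. DDIT3 and ATF3 were called lower in all 6 of these fits and under the 3 rescalings. ATF4 was called lower in 2 of the 6 fits, and it was not called with quantile normalization. Of the cytosolic chaperones HSPB1 fell by 0.54 (limma adjusted p = 0.0118) and HSPA1A, which may share reads with its near-identical copy HSPA1B, rose by 0.19 (limma adjusted p = 0.0493). HSPB1 stayed called in all 6 fits that leave out a culture, and HSPA1A in 1, the one without control culture 3. Of the translocation genes 0 of 21 were called higher and 1 lower (SEC11A, -0.25), a call that stayed in 1 of these 6 fits, the one without RBMX culture 2. With equal sums 7 of the 21 were called higher and 0 lower, and with quantile normalization 5 and 0. These fits called 40.5% and 31% of all genes in either direction.

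**Figure D5:**
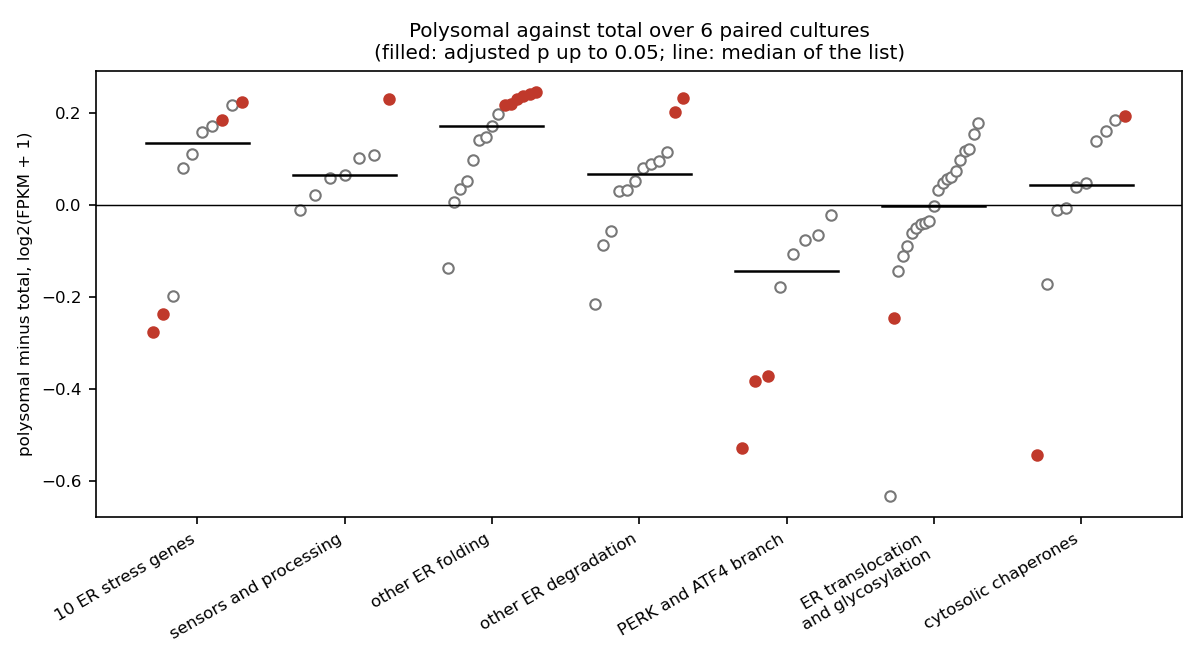
Polysomal minus total RNA over the 6 paired cultures (y axis, log2(FPKM + 1)) for the genes of each list (x axis), sorted within the list, with the median as a line. Filled symbols passed the limma test at an adjusted p up to 0.05, 2 above and 2 below 0 among the 10 genes, 6 above among other ER folding genes and 3 below in the PERK and ATF4 branch.

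The 10 genes did not vary as one group over the 12 libraries. HSPA5 and PDIA4 varied most alike (Pearson r of log2(FPKM + 1) of 0.99, n = 12), and r was 0.89 over the 10 libraries without control culture 3. HSPA5 and HSP90B1 had r of 0.86 and 0.95, HERPUD1 and XBP1 0.90 and 0.91, and SDF2L1 and CRELD2 0.81 and 0.80, with all and with 10 libraries. HSPA5 and DNAJC3 went from 0.88 to 0.38, and HSPA5 and EDEM1 from -0.73 to 0.33, without that culture. SDF2L1 and CRELD2 no longer varied alike once the means of the 4 groups were taken away (r of -0.28). These correlations share the libraries and their scaling, and describe only these 12 libraries.

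Of the other genes tested, small RNA genes left out, those that followed the mean standardized profile of the 10 genes most closely included GLA (r of 0.96), EPCAM (0.95), SRPX (0.95) and ELF1 (0.94). Of these, GLA, SRPX and ELF1 were lower in both libraries of control culture 3 than in any of the other 10 libraries, and GLA was at 55.7 and 46.1 FPKM there against 57.2 to 80.6 FPKM elsewhere. Among the 10 genes r with this mean ran from -0.62 for EDEM1 to 0.89 for HSPA5.

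Some of the 10 genes share sequence with others. DNAJB9 (chr7:108569568-108574850, plus strand, GRCh38, GENCODE v29) overlaps THAP5 and PNPLA8 on the opposite strand, CRELD2 (chr22:49918167-49927540, plus strand) overlaps ALG12, and HSP90B1 (chr12:103930107-103953645, plus strand) overlaps C12orf73 and MIR3652. Without stated use of strand, reads of such partners cannot be told apart. The partner ALG12 ran from 19.8 to 26.8 FPKM, C12orf73 from 8.22 to 18.4 FPKM, PNPLA8 from 7.08 to 10.9 FPKM and THAP5 from 13.0 to 32.3 FPKM over the 12 libraries, THAP5 thus above DNAJB9 by its median (21.7 FPKM). MIR3652, on the same strand as HSP90B1, was listed at 0 to 462 FPKM, with a median of 115 FPKM. HSP90B2P, a pseudogene copy of HSP90B1, was listed at 3.17 to 6.28 FPKM.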

How the data were processed

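The authors deposited FPKM values for 25268 gene symbols in 12 libraries, made from 500 ng of RNA with an Illumina TruSeq RNA kit. The submitters' processing notes name CASAVA 1.8, TopHat2 2.0.13, Cufflinks 2.2.1, Cuffnorm and hg19, while the study's methods describe another alignment with hg38. How Cuffnorm scaled the libraries is not given in the sources used here. Columns were matched to samples by vector, fraction and replicate, with 0 unmatched. Small RNA genes, 2042 by symbol and 502 of those tested, took 40.6% to 72.9% of the FPKM of a library.

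The 10 genes, the pathway lists and the fits were chosen with earlier results of these data known. The analysis used log2(FPKM + 1), which understates changes of low genes, and 14676 genes, those whose FPKM averaged 0.5 or more across the libraries, were tested in R 4.3.3 with limma 3.58.1 (lmFit, and eBayes with an intensity trend). Each comparison used its own 6 libraries, and the difference between fractions all 12. Benjamini-Hochberg adjustment ran over all genes tested, and an adjusted p up to 0.05 was called. The smallest two-sided exact permutation p of 3 libraries against 3 is 0.1. P-values measure the spread between cultures of 1 cell line. The unpaired fits of the planned comparisons were tested on simulated data, in which all libraries were drawn independently. The paired fit of all 6 cultures was not tested in this way. Plots used Python 3.11.15 and matplotlib 3.10.9.

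The genes named are the 10 genes, RBMX, the 5 genes most like their mean profile, and list genes past the threshold or, where there were none, the largest rise and fall of a list among genes whose groups did not overlap. CANX and HSPA1B are list genes named outside this rule. HSP90AA1 meets it only for polysomal against total RNA in RBMX cells. A protein search was planned and not run, and 1 gene named by this rule is not reported here.

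Total and polysomal RNA of a culture come from the same gradient, by the study's methods, which pairs them, while the labels mention 2 dishes for both extractions. Across genes, the correlation between their deviations from the means of their groups was 0.623, 0.723 and 0.848 in control and 0.231, 0.0257 and 0.692 in RBMX cultures. The fits were repeated with 0.1 as the pseudocount, with a minimum of 0.1 or 1 FPKM or none, with median-ratio rescaling, equal sums over genes other than small RNA genes, quantile normalization, small RNA genes left out, no trend, a replicate block, a joint fit of all 12 libraries, and without each replicate in turn. Leaving out control culture 3, and the fit of all 6 cultures, were added after seeing the data.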

Additional observations from a re-analysis of the deposited data

How the results depend on the processing

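None of the 10 genes was called in any of the 5 planned comparisons by limma, with any of the settings tried on each comparison alone, or without control culture 3 (0 to 4 of 10 had an unadjusted p under 0.05 as reported). The fit of all 6 paired cultures, added after seeing the data, called 4 of 10 for polysomal against total RNA as an average over both vectors. A replicate block changed no call of the 10 genes. Neither the labels nor the methods say that a number is shared between control and RBMX cultures (deviations correlated with 0.347, -0.0444 and 0.0205 in total and -0.158, 0.0460 and 0.0766 in polysomal RNA), and a block by this number moved the calls over all genes from 24 to 13 in total and from 7 to 3 in polysomal RNA. Over the alternatives, calls over all genes ran from 13 to 178 and from 2 to 126 for RBMX in total and polysomal RNA, from 6 to 3512 and from 4 to 3512 for polysomal against total RNA in control and RBMX cells, and from 0 to 7 for the difference between fractions. The 3512 calls are those of the fit of all 6 cultures, over both vectors together. Of 960 values of the 10 genes under alternatives, 67 took another sign, in 22 of the 50 results, and the cause was not tested.

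Without control culture 3 the log2 difference between RBMX and control was 0.0089 for DNAJB9 and -0.083 for DNAJC3 in total RNA, and -0.012 for HSPA5, -0.032 for PDIA4, -0.071 for DNAJC3 and 0.0093 for EDEM1 in polysomal RNA. In total RNA it was 0.0026 for HERPUD1 with median-ratio rescaling and -0.0018 for DNAJC3 with equal sums. The difference between fractions was 0.00039 for DNAJB9 with median-ratio rescaling, 0.037 for DNAJB9, 0.027 for HERPUD1, 0.013 for PDIA4 and 0.026 for CRELD2 with equal sums, and 0.023 for HSPA5, 0.033 for PDIA4 and 0.016 for CRELD2 with quantile normalization.

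Leaving out each replicate gave these ranges where a sign changed. For RBMX in total RNA they were -0.11 to 0.0089 for DNAJB9, -0.083 to 0.13 for DNAJC3, -0.047 to 0.034 for HERPUD1 and -0.084 to 0.030 for XBP1. In polysomal RNA they were -0.13 to 0.065 for DNAJB9, -0.071 to 0.19 for DNAJC3, -0.092 to 0.0093 for EDEM1, -0.090 to 0.040 for HERPUD1, -0.012 to 0.70 for HSPA5 and -0.032 to 0.71 for PDIA4. For polysomal against total RNA of control cells they were -0.037 to 0.25 for DNAJC3, -0.024 to 0.15 for EDEM1, -0.12 to 0.67 for HSPA5 and -0.13 to 0.72 for PDIA4, and in RBMX cells -0.092 to 0.14 for HSP90B1. For the difference between fractions they were -0.079 to 0.055 for CRELD2, -0.084 to 0.11 for DNAJB9, -0.11 to 0.17 for DNAJC3, -0.020 to 0.15 for EDEM1, -0.089 to 0.041 for HERPUD1, -0.52 to 0.27 for HSPA5 and -0.52 to 0.33 for PDIA4. The number of fragments is unknown, so that no counting error could be given, and 3 cultures per vector limit what a test could call.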

Other observations

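The exact ERSE was also looked for in the promoters of the other genes tested, a list drawn after the results were known. It was found for 11 of them, and 0 were called in any comparison by limma (2 had an unadjusted p under 0.05 for RBMX in total and 2 in polysomal RNA, and 1 and 2 for polysomal against total RNA in control and RBMX cells). These shares, 18.2%, 18.2%, 9.09% and 18.2%, stand beside 18.9%, 11.4%, 7.49% and 22.7% of the 10291 genes without one, in the same order. Of the genes without one, 8 were called for RBMX in total and 2 in polysomal RNA. Another 3 and 101 were called for polysomal against total RNA in control and RBMX cells, and 0 for the difference between fractions. The 11 genes had a median log2 difference between RBMX and control of 0.14 in total and 0.18 in polysomal RNA, beside 0.0041 and 0.00088 for those without one. These medians were not computed without control culture 3. For polysomal against total RNA the medians were 0.047 in control and 0.052 in RBMX cells, beside 0.0048 and 0.0033.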
